A study of Mus musculus with 6 samples.

Results

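Krt5, Krt14, Krt15 and Krt17 are the keratins of the basal layer of stratified and pseudostratified epithelia. These 4 genes were chosen by name, with no measured value in the rule, although earlier results of these data were known, and are 4 of 25273 genes with a value in the series and 4 of 10255 genes tested. Libraries were prepared from amplified cDNA of basal cells sorted by flow cytometry from proximal ducts (3 libraries) and distal ducts (3 libraries) of the mouse prostate. The cells came from C57BL/6 mice aged 8 to 12 weeks that carried no stated transgene or treatment, and they differed by the part of the duct that was dissected. Proximal ducts lie next to the urethra and distal ducts toward the gland tips. Neither the antibodies behind the sort nor the animals behind each library are stated, so the p-values reflect only the variation among these libraries, and part or all of it may be technical.

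Keratins are the intermediate filament proteins of epithelial cells. A filament forms only from a type I keratin paired with a type II keratin, and Krt5 is the type II partner of the basal layer. Its classical type I partner is Krt14. Krt15 is a further basal type I keratin, known in mouse skin for its expression in the hair follicle bulge, and Krt17 is a type I keratin of skin appendages and of wounded or stressed epidermis. In the prostate, Krt5 and Krt14 are used to tell basal cells from the luminal cells above them, which carry Krt8 and Krt18.

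The 3 type I genes lie on the minus strand of chromosome 11 in mm10, Krt15 at chr11:100131758-100135928, Krt14 at chr11:100203162-100207548 and Krt17 at chr11:100256217-100261029. Krt5 lies on the minus strand of chromosome 15 at chr15:101707070-101712898. Each type I gene has 8 exons and Krt5 has 9. The coding sequences have 484, 456 and 433 codons for Krt14, Krt15 and Krt17, and 580 codons for Krt5. The 60 coding bases that open the rod of the type I genes are printed here because they bear on how reads are divided between the genes. They come from the GENCODE M21 transcripts, are written 5′ to 3′, and capitals mark bases that differ from Krt14.
Krt14: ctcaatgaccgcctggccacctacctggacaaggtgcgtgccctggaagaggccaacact
Krt17: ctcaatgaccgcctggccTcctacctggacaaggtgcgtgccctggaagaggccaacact
Krt15: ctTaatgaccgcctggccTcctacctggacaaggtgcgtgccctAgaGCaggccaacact

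Over this stretch Krt17 differed from Krt14 at 1 base and Krt15 at 5. Over the whole aligned coding sequence, Krt14 shared 83.8% of its bases with Krt17, 72.5% with Krt15 and 59.2% with Krt5. Of the 50-base windows of the Krt14 transcript, 14.4% also occurred in another gene, mainly Krt16, which held 11.4% of them. The share was 12.2% for Krt5, mainly through Krt6a with 6.98%, and it was 3.99% for Krt17 and 0.67% for Krt15. How the authors' counting divided reads between such copies is not stated, so the values of Krt14 and Krt5 carry this uncertainty more than that of Krt15. The deposited interval of each value, which covers estimation error within a library, had a half-width of 4.17 to 4.19% of the value for Krt14. It was 1.08 to 1.55% for Krt5, 0.691 to 0.861% for Krt17 and 0.521 to 0.709% for Krt15.

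Levels are given in FPKM, a fragment count scaled to transcript length and library depth, so that genes of different length can be set side by side. The depth read from the deposited intervals was, in units of 1000000 fragments, 22.0 to 26.8 in proximal and 21.7 to 27.7 in distal libraries. Basal keratins were all present at high levels, but the luminal keratins Krt8 and Krt18 were too, at 598 and 1279 FPKM proximally and 546 and 1266 FPKM distally. Same-numbered libraries do not form stated pairs, but both libraries numbered 1 tended to depart from their groups in the same direction. Proximal replicates 2 and 3 carried transcripts of seminal vesicle secretory genes that the other libraries held at low levels, as given with the markers of other cells.

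The 3 type I basal keratins were among the 18 most abundant genes in every library, and Krt5 stood lower. Summed over the 4 genes, they reached 8419, 8165 and 8087 FPKM in proximal replicates 1 to 3, against 8822, 7079 and 7073 FPKM in distal replicates 1 to 3. The sums overlapped between the groups. They made up 2.12 ± 0.0675% of all FPKM in proximal and 1.88 ± 0.211% in distal cells (SD, n = 3 each). Among 25273 genes ranked by level, Krt15 stood between rank 1 and 7 in the proximal and between rank 12 and 16 in the distal libraries. Krt14 stood between rank 9 and 13 in the proximal and between rank 5 and 12 in the distal libraries. Krt17 stood between rank 13 and 18 in the proximal and rank 10 and 11 in the distal libraries, and Krt5 between rank 63 and 77 in the proximal and rank 134 and 165 in the distal libraries.

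The 4 genes did not move together. Krt5 and Krt15 were higher in proximal cells, each by about the same factor, whereas Krt14 and Krt17 had lower values in proximal cells and did not pass the test. Of the 4, 2 were called higher and none lower (limma, Benjamini-Hochberg adjusted p under 0.05), where 4.52% of all tested genes were called higher, 2.50% lower and 7.02% either way. On the lower side, Krt17 alone had an unadjusted p under 0.05 (limma). The values of the groups did not overlap for any of the 4, a pattern that 28.8% of all tested genes also showed, 15.8% with higher and 13.0% with lower proximal values. In bulk samples such as these, fewer cells of a type and less RNA per cell cannot be told apart.

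Krt5, the type II keratin, was at 674, 598 and 583 FPKM in proximal libraries, against 437, 363 and 340 FPKM in distal libraries. Every proximal library lay above every distal one, and the library numbered 1 was the highest of each group. The means were 618 ± 48.9 FPKM proximally and 380 ± 50.7 FPKM distally (SD, n = 3 each), a 1.63-fold difference. On the log2(FPKM + 1) scale the change was 0.71 ± 0.13 (SE, limma, adjusted p = 0.0204). The call ended without proximal replicate 2, proximal replicate 3, distal replicate 2 or distal replicate 3 (limma, adjusted p = 0.0856, 0.0610, 0.106 and 0.0963), and held without both libraries numbered 1 (limma, adjusted p = 0.00573).

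The Krt5 promoter is shown because Krt5 is the member for which the RefSeq table gives a start close to that of the GENCODE transcript, 7 bases away. These are the 120 bases before that start at chr15:101712906-101713025 (GRCm38.p6, minus strand), written 5′ to 3′.
Krt5: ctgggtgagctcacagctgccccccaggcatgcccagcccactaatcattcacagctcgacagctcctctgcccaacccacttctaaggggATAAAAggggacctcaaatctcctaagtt

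Capitals mark the letters ATAAAA, which begin 29 bases before the start. Of 32851 mouse promoters in the same table, 8.3% hold these letters on either strand of the same window. The letters TATAAA, held by 6.3% of promoters, were searched on both strands and are not in this window. The same is true of GGGCGG, held by 26.5% of promoters, and of GCCNNNGGC, held by 8.0%. ATAAAA and TATAAA can share letters. These motifs were picked after the sequence had been seen, and a match is a description of the letters, not of a binding site.

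Krt15, the basal type I keratin with the highest level in proximal cells, was at 3836, 3615 and 3326 FPKM in proximal libraries, against 2443, 2037 and 2097 FPKM in distal libraries. The groups did not overlap, and in both of them the library numbered 1 was again the highest. Means of 3592 ± 256 FPKM proximally and 2192 ± 219 FPKM distally (SD, n = 3 each) differed 1.64-fold. The log2 change was 0.71 ± 0.15 (SE, limma, adjusted p = 0.0306). The call ended on leaving out any single library other than distal replicate 1 (limma, adjusted p from 0.0522 to 0.147), and held without both libraries numbered 1 (limma, adjusted p = 0.0107). With no filter on low values neither Krt5 nor Krt15 passed (limma, adjusted p = 0.0585 and 0.186). Quantile normalization gave Krt15 a log2 change of 1.09.

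Krt14 was at 2276, 2160 and 2121 FPKM in proximal libraries, against 3397, 2468 and 2283 FPKM in distal libraries. The proximal libraries lay within a narrow range just below the lowest distal library, and distal replicate 1 stood well above the other distal libraries. The log2 change of -0.29 ± 0.18 did not pass the test (SE, limma, adjusted p = 0.365). Without distal replicate 1 it was -0.12 (limma, adjusted p = 0.572). The shorter of the 2 Krt14 transcripts in the files, which lacks the start of the gene, was listed at 0 in all 6 libraries, so the gene's level is that of the full-length transcript.

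Krt17, the keratin of wounded and stressed epidermis, was at 1634, 1793 and 2057 FPKM in proximal libraries, against 2545, 2211 and 2354 FPKM in distal libraries. The highest proximal library lay a little below the lowest distal one. Its means were 1828 ± 214 FPKM proximally and 2370 ± 168 FPKM distally (SD, n = 3 each). The log2 change of -0.38 ± 0.15 did not pass (SE, limma, adjusted p = 0.171). Krt17 lay opposite to Krt5 and Krt15 also in that its proximal replicate 1 was the lowest proximal library. Its distal replicate 1, however, was the highest distal library, as for Krt5 and Krt15. In a list of wound and stress genes of epidermis, 2 of 9 tested were higher (Krt6a and Krt6b), 2 were lower and 5 did not pass, with a median log2 change of 0.16. The lower ones were Ivl and Sprr1b, both of the cornified envelope, with log2 changes of -0.98 each (limma, adjusted p = 0.00234 and 0.0290). The call of Ivl held under every alternative run, whereas that of Sprr1b ended with no filter on low values (limma, adjusted p = 0.0674) and on leaving out replicate 2 or 3 of either group (limma, adjusted p from 0.0643 to 0.112). A list of genes that respond to tissue dissociation held immediate early genes and also the heat shock genes Hspa1a and Hspa1b. These genes summed to 7399 to 9348 FPKM in proximal and 10135 to 18648 FPKM in distal libraries, with a median log2 change of -0.91. Of 18 tested, 3 were lower and 14 were lower at an unadjusted p under 0.05, while none was higher at either (limma). The share of all tested genes under that unadjusted p was not counted, so the 14 stand without a background. The list's count of lower calls was 14 without distal replicate 1, 16 without both libraries numbered 1, and 0 without proximal replicate 2. Over all 10255 tested genes, lower calls numbered 614, 1328 and 52 in these runs. The list's count was 1 without proximal replicate 3, without distal replicate 2, without distal replicate 3 or with no filter on low values. The part of these dissociation genes in the values of Krt17 was not tested.

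**Figure D1:**
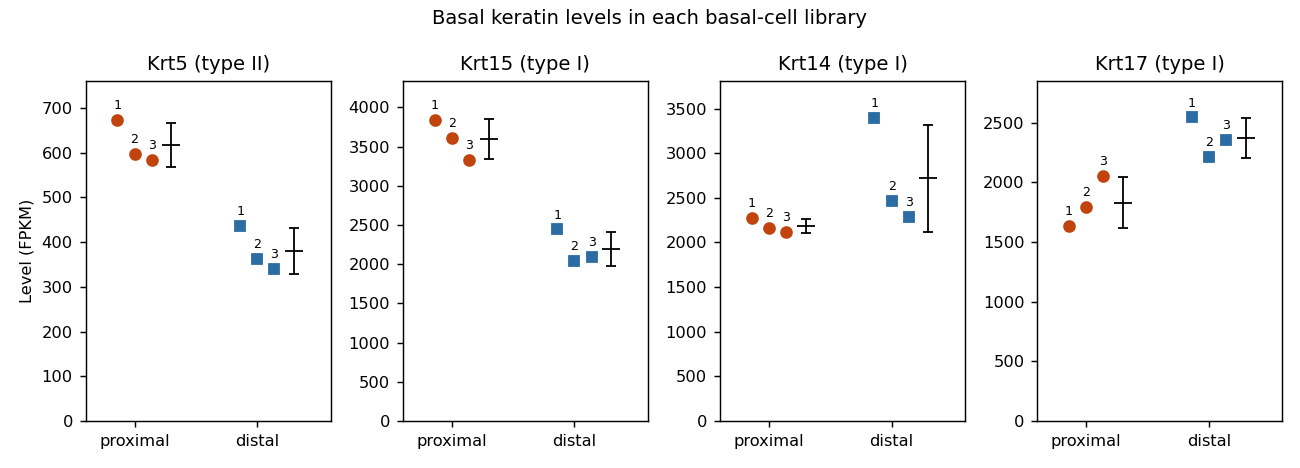
Level of each basal keratin in FPKM (vertical axes start at 0) in 3 proximal and 3 distal libraries; points are libraries with their replicate number, and the bar beside them is the mean with its SD. Krt5 and Krt15 lie higher in all proximal libraries, Krt17 and Krt14 lie lower, and distal replicate 1 stands apart for Krt14 at 3397 FPKM.

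The order of the levels therefore differed between the regions. In proximal cells Krt15 was the most abundant in every library, followed by Krt14, Krt17 and Krt5, and the values of neighbouring genes in this order did not overlap. In distal cells the ranges of Krt14, Krt17 and Krt15 overlapped across libraries, at 2283 to 3397, 2211 to 2545 and 2037 to 2443 FPKM. Within each distal library, however, Krt15 was the lowest of these type I genes, while Krt14 lay above Krt17 in distal replicates 1 and 2 and below it in distal replicate 3. Krt5 was the lowest of the 4 in all 6 libraries.

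As a share of the 4 genes, Krt15 made up 45.6, 44.3 and 41.1% in proximal libraries, against 27.7, 28.8 and 29.6% in distal libraries. Krt14 made up 26.6 ± 0.412% in proximal and 35.2 ± 3.13% in distal cells, and Krt17 made up 22.3 ± 3.03% in proximal and 31.1 ± 2.22% in distal cells (SD, n = 3 each). Krt5 held 7.51 ± 0.432% in proximal and 4.96 ± 0.165% in distal cells (SD, n = 3 each). None of these shares overlapped between the groups. Since shares of a fixed whole move against each other, they describe the make-up and are not 4 separate results.

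**Figure D2:**
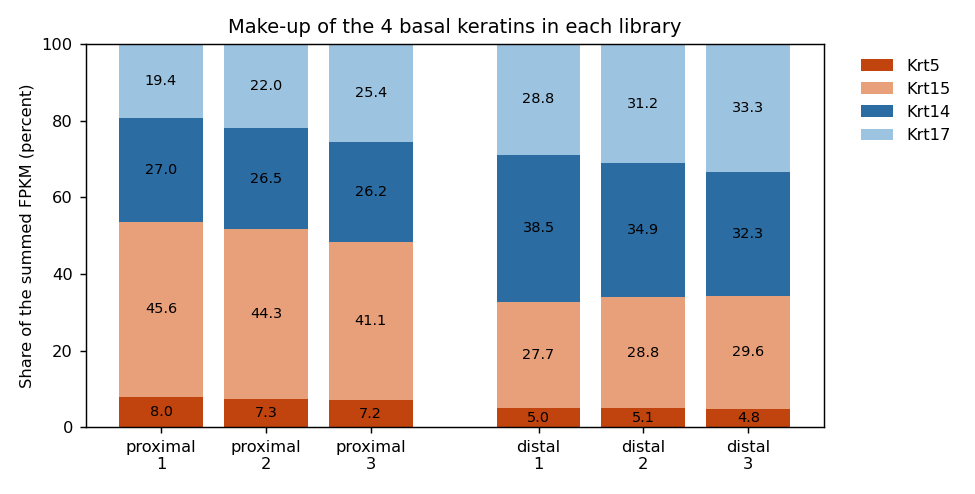
Share of each gene in the summed FPKM of the 4 basal keratins, in percent, for every library (stacked bars that add to 100). The Krt15 segment spans 41.1 to 45.6% in proximal and 27.7 to 29.6% in distal libraries, while the Krt14 and Krt17 segments are smaller in all proximal libraries.

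Because a keratin filament needs both types, the level of Krt5 was set against each type I partner within a library, which also removes any scaling between libraries. The ratio of Krt5 to Krt15 was nearly constant. It was 0.176, 0.165 and 0.175 in proximal libraries, against 0.179, 0.178 and 0.162 in distal libraries. The groups overlapped, and the log2 difference was -0.01 ± 0.05 (SE, n = 3 each, exact permutation test, two-sided, p = 0.900). This p does not show that the ratios are equal, but the SE is small beside the change of either gene.

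The ratio of Krt5 to Krt14, the textbook basal pair, differed by a factor of 2.00. It was 0.296, 0.277 and 0.275 in proximal libraries, against 0.129, 0.147 and 0.149 in distal libraries. The gap between the groups was wider than the range within either, and the log2 difference was 1.00 ± 0.08 (SE, n = 3 each, exact permutation test, two-sided, p = 0.1). With 3 libraries against 3, 0.10 is the smallest p this test can give.

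The ratio of Krt5 to Krt17 was 0.412, 0.333 and 0.283 in proximal libraries, against 0.172, 0.164 and 0.144 in distal libraries. All proximal ratios were higher, with a wider spread than for Krt14, and the log2 difference was 1.09 ± 0.17 (SE, n = 3 each, exact permutation test, two-sided, p = 0.1). Against the sum of the 3 type I partners, Krt5 stood at 0.0812 ± 0.00506 in proximal and 0.0522 ± 0.00183 in distal cells (SD, n = 3 each), a 1.55-fold difference without overlap (exact permutation test, two-sided, p = 0.1). Adjusted over the 4 ratios, the p-values were 0.133 for the ratios to Krt14, to Krt17 and to the sum, and 0.900 for the ratio to Krt15 (exact permutation test).

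Among the type I genes themselves, Krt15 exceeded Krt14 by a factor of 1.69, 1.67 and 1.57 in proximal libraries, whereas the ratio was 0.719, 0.825 and 0.918 in distal libraries. The more abundant of the 2 genes was thus Krt15 in all proximal and Krt14 in all distal libraries. The ratio of Krt15 to Krt17 was 1.99 ± 0.366 in proximal and 0.924 ± 0.0346 in distal cells, and that of Krt17 to Krt14 was 0.839 ± 0.126 in proximal and 0.892 ± 0.141 in distal cells (SD, n = 3 each). The last of these overlapped between the groups. These 3 ratios were chosen after the values had been seen and were not tested.

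**Figure D3:**
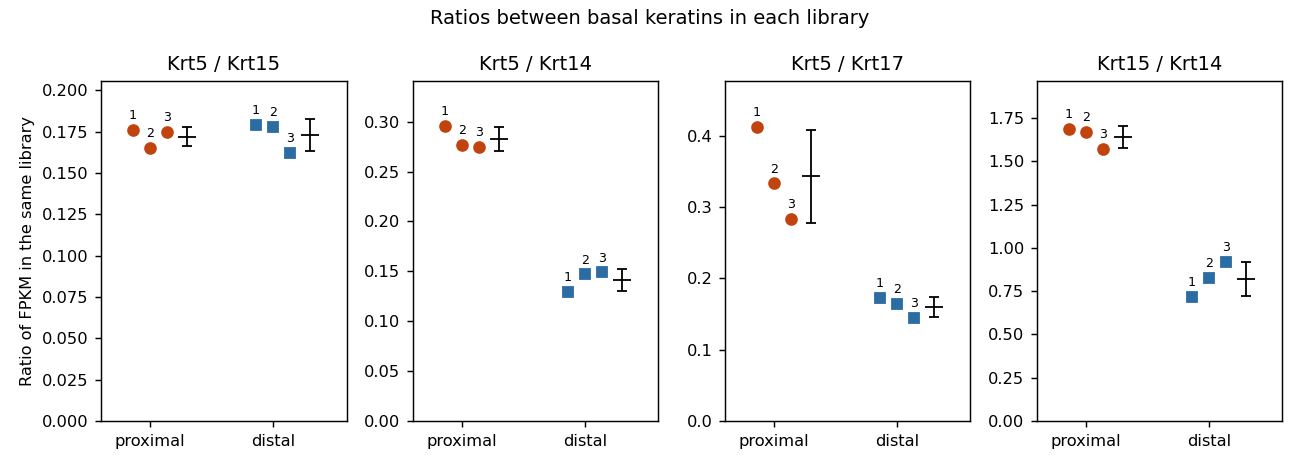
Ratio of FPKM between pairs of basal keratins within each library (vertical axes start at 0), with libraries as numbered points and the mean with its SD beside them. Krt5 to Krt15 lies between 0.162 and 0.179 in all 6 libraries, while the other 3 ratios shown are higher in every proximal library.

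Within the wider keratin family, the 4 genes held 70.8 ± 0.80% of keratin FPKM in proximal and 77.0 ± 1.26% in distal cells (SD, n = 3 each), with no overlap. Of 28 keratins in the lists, 18 were tested. Among 8 type II keratins, 5 were higher and 3 did not pass, with a median log2 change of 1.13 and no lower call (none also at an unadjusted p under 0.05, limma). Among 10 type I keratins, 3 were higher, 1 was lower and 6 did not pass, with a median of 0.02. Over all tested genes the median was -0.01.

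The changes of Krt5 and Krt15 were smaller than those of the other keratins called higher. Krt6a and Krt6b, type II keratins of wounded epidermis and close relatives of Krt5, had log2 changes of 1.86 ± 0.12 and 1.55 ± 0.14 (SE, limma, adjusted p = 0.000213 and 0.000809). Krt6a reached 91.2 ± 12.7 FPKM proximally and 24.3 ± 1.74 FPKM distally (SD, n = 3 each), below Krt5 in both. Krt4 and Krt13, which pair in stratified mucosa, changed by 2.94 ± 0.19 and 2.08 ± 0.11, and Krt7 and Krt19, keratins of simple epithelia, by 2.45 ± 0.15 and 2.03 ± 0.12 (SE, limma, adjusted p from 9.49e-05 to 0.000163). Krt20, a keratin of urothelial and intestinal surface cells, was lower, at 1.21 ± 0.305 FPKM proximally and 3.65 ± 0.726 FPKM distally (SD, n = 3 each, limma, adjusted p = 0.0114), a call that ended without proximal replicate 2 or distal replicate 3 (limma, adjusted p = 0.0618 and 0.0531). Krt16, which shared 86.0% of its aligned coding bases with Krt14, was at 160 ± 22.3 FPKM proximally and 149 ± 61.5 FPKM distally and did not pass (SD, n = 3 each, limma, adjusted p = 0.743). Without both libraries numbered 1 it passed, with a log2 change of 0.37 (limma, adjusted p = 0.0320).

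Taken as sums, type II genes stood higher relative to type I genes in proximal cells. Summed over each list, type II keratins were at 0.175 ± 0.0121 of type I keratins in proximal and 0.117 ± 0.00396 in distal cells (SD, n = 3 each), without overlap. The share of Krt5 among type II keratins overlapped between the groups, with 35.8 ± 3.31% of their sum in proximal and 36.4 ± 2.26% in distal cells (SD, n = 3 each). The luminal pair Krt8 and Krt18 had log2 changes of 0.14 and 0.04 and did not pass (limma, adjusted p = 0.643 and 0.922).

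Along chromosome 11, Krt15 is flanked by Krt13 and Krt19, and all 3 genes were higher in proximal cells. Krt14, Krt16 and Krt17, further along the same cluster, did not pass. Krt9, between Krt19 and Krt14, was listed at 0 in all 6 libraries. On chromosome 15, Krt5 stands next to Krt6a and Krt6b, which were both higher. No test of position was made.

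**Figure D4:**
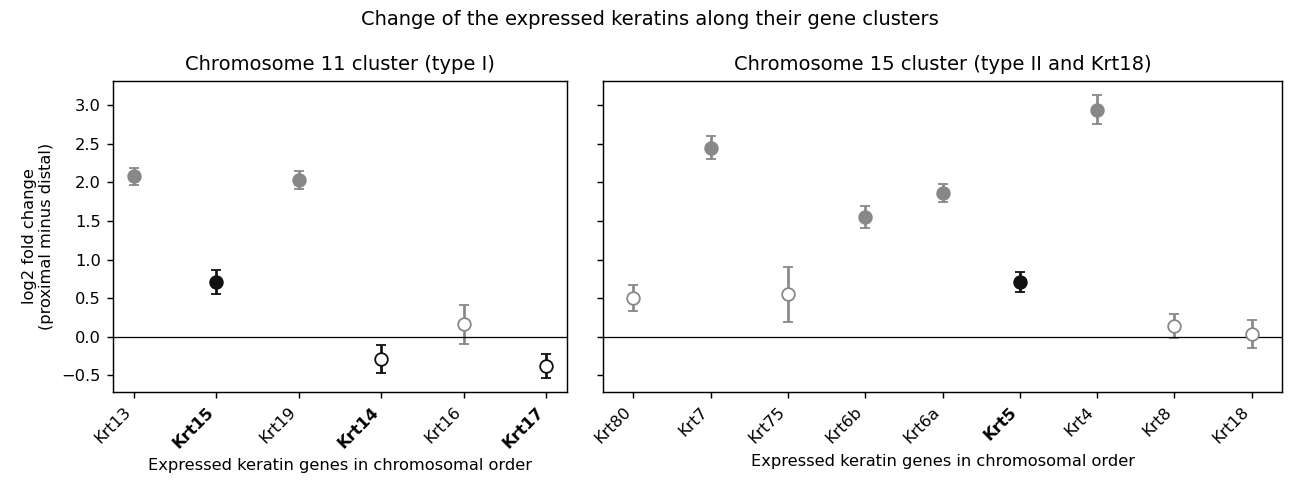
Log2 fold change on the log2(FPKM + 1) scale (proximal minus distal, bars are the SE) for the tested keratins of the stretch from Krt13 to Krt17 on chromosome 11 and from Krt80 to Krt18 on chromosome 15, in chromosomal order and not to scale. Filled points passed at an adjusted p under 0.05, open points did not, and the 4 basal keratins are black; Krt15 (0.71) and Krt5 (0.71) are filled, Krt14 (-0.29) and Krt17 (-0.38) are open.

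Proteins that anchor keratin filaments at hemidesmosomes and desmosomes were also examined. Of 18 tested, 2 were higher and 16 did not pass, with a median log2 change of 0.27 and no lower call (also none at an unadjusted p under 0.05, limma). Without both libraries numbered 1, 6 were higher and 1 was lower, where 881 of all 10255 tested genes were higher and 1328 lower. Plec, which encodes plectin and links basal keratins to integrins, was at 103 ± 17.7 FPKM proximally and 56.5 ± 4.21 FPKM distally (SD, n = 3 each, limma, adjusted p = 0.0131). Col17a1, the collagen of the hemidesmosome, was at 188, 232 and 255 FPKM in proximal libraries, against 130, 142 and 151 FPKM in distal libraries (limma, adjusted p = 0.0281). Neither call held without proximal replicate 2, proximal replicate 3 or distal replicate 2, and that of Col17a1 also ended without distal replicate 3 (limma, adjusted p from 0.0561 to 0.122) and with no filter on low values (limma, adjusted p = 0.0620). Dst, which encodes the plakin that attaches Krt5 and Krt14 filaments, was at 159 ± 18.6 FPKM proximally and 116 ± 14.1 FPKM distally and did not pass (SD, n = 3 each, limma, adjusted p = 0.0832). Dst passed without distal replicate 1, without both libraries numbered 1, with a replicate block and with equal library totals (limma, adjusted p = 0.0409, 0.0331, 0.0182 and 0.0473). In a list of basal markers that leaves out the 4 keratins and shares genes such as Col17a1 and Dst with the anchors, 6 of 20 were higher and 14 did not pass, with a median log2 change of 0.20 and no lower call (3 at an unadjusted p under 0.05, limma). Without both libraries numbered 1, 9 were higher and 4 lower, again beside 881 and 1328 of all tested genes. Without distal replicate 2 only 2 were higher, beside 192 of all tested genes. Nrg1, a growth factor, was at 59.6 ± 5.12 FPKM proximally and 29.0 ± 1.22 FPKM distally (SD, n = 3 each, limma, adjusted p = 0.00150). Lama3 and Lamb3, which encode chains of a basement membrane laminin, had log2 changes of 0.73 and 0.45 (limma, adjusted p = 0.00835 and 0.0268). The call of Lama3 ended without distal replicate 2, and that of Lamb3 on leaving out replicate 2 or 3 of either group (limma, adjusted p from 0.0504 to 0.121).

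Of 22 tested regulators and partners of epithelial keratins, 1 was higher, 1 was lower and 20 did not pass, with a median log2 change of 0.04. Without both libraries numbered 1, 2 were higher and 5 lower, where 881 and 1328 of all 10255 tested genes were. Grhl1, a grainyhead transcription factor of epidermis, was the lower one, at 17.8 ± 2.01 FPKM proximally and 26.7 ± 1.64 FPKM distally (SD, n = 3 each, limma, adjusted p = 0.0269). Pmepa1, a transmembrane inhibitor of TGF-beta signaling, was the higher one, with a log2 change of 0.51 (limma, adjusted p = 0.0383). The call of Grhl1 ended on leaving out replicate 2 or 3 of either group, and that of Pmepa1 on leaving out any library other than distal replicate 1 (limma, adjusted p from 0.0549 to 0.172). That of Pmepa1 also ended with no filter on low values and with no variance trend (limma, adjusted p = 0.0629 and 0.0564). Trp63, whose product p63 binds regulatory elements of Krt5 and Krt14 in epidermis, was at 27.8, 39.1 and 35.7 FPKM in proximal and 34.6, 74.7 and 66.2 FPKM in distal libraries. Its distal replicate 1 lay among the proximal values, and the log2 change of -0.70 did not pass (limma, adjusted p = 0.170), whereas it was -0.90 without both libraries numbered 1 and was -1.03 without distal replicate 1 alone (limma, adjusted p = 0.00505 and 0.0123). With a replicate block on all 6 libraries, Trp63 was called lower at the same log2 change of -0.70 (limma, adjusted p = 0.0214). Among other intermediate filament genes, 1 of 7 was higher, namely Vim, which encodes the mesenchymal filament protein vimentin, at 24.7 ± 2.29 FPKM proximally and 7.11 ± 1.37 FPKM distally (SD, n = 3 each, limma, adjusted p = 0.000867).

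The most similar patterns were sought among 2869 named genes averaging 20 FPKM or more, by Pearson's r over the 6 libraries, as a description without a p-value. The libraries form 2 groups, so r for Krt5, Krt15 and Krt17 mostly reflects the difference between them. For Krt14 it depends strongly on distal replicate 1, at 3397 FPKM against 2468 and 2283 FPKM in the other distal libraries. For Krt5 the nearest were Adss, an enzyme of purine synthesis (r = 0.999), and Parva, an adaptor of integrin adhesions (r = 0.997). For Krt15 they were Tpst2, a tyrosine sulfotransferase of the Golgi (r = 0.998), and Mfge8, a secreted glycoprotein that binds integrins (r = 0.998). Rab31, a small GTPase of vesicle transport, was among the 5 nearest genes of both. Mfge8 was at 239, 208 and 184 FPKM in proximal libraries, against 117, 95.3 and 98.0 FPKM in distal libraries, and was called higher with a log2 change of 1.02 (limma, adjusted p = 0.00492). A high r does not mean a change of the same size. Parva and Tpst2 had log2 changes of only 0.27 and 0.26 and did not pass (limma, adjusted p = 0.137 and 0.143). For Krt14 the nearest was Ercc1, a DNA repair factor (r = 0.984), which shared the high value of distal replicate 1, at 73.4 FPKM against 49.7 and 46.7 FPKM in the other distal libraries. For Krt17 the nearest were Rab20, a further small GTPase (r = 0.99), and Mt2, a metallothionein (r = 0.977).

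Markers of other cells moved between the same libraries. Of the 13 tested luminal markers 2 were higher and 2 were lower, and their sum was 3724 to 5033 FPKM in proximal and 3777 to 5895 FPKM in distal libraries. The count of lower luminal calls was 0 with no filter on low values or on leaving out replicate 2 or 3 of either group. It was 1 without proximal replicate 1 or with transcripts matched by span and spliced length only. Endothelial markers summed to 27.5 to 39.9 FPKM in proximal and 6.63 to 19.1 FPKM in distal libraries, with 5 of 8 higher. That count was 0 with no filter on low values, with a filter at 5 FPKM, and without proximal replicate 2, distal replicate 2 or distal replicate 3. It was 1 without proximal replicate 3, and 2 without proximal replicate 1 or with a pseudocount of 0.1.

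Of 8 tested fibroblast markers, 5 were higher, namely the collagen genes Col1a1, Col1a2 and Col3a1, the receptor gene Pdgfrb and the matrix gene Fbln1, all below 20 FPKM. Leaving out any single library gave 1 to 3, and no filter on low values gave 2. The summed list, at 685 to 757 FPKM in proximal and 771 to 814 FPKM in distal libraries, was nearly all Dcn, a matrix proteoglycan gene at 679 ± 35.1 FPKM proximally and 769 ± 28.1 FPKM distally that did not pass (SD, n = 3 each, limma, adjusted p = 0.365). Urothelial markers summed to 197 to 241 FPKM in proximal and 207 to 246 FPKM in distal libraries, mostly from Foxa1, also a luminal marker here. Of 7 tested, 2 were higher and 1, Krt20, was lower. Upk1a and Pparg were higher, at means of 3.38 and 3.43 FPKM proximally and 0.626 and 0.213 FPKM distally (limma, adjusted p = 0.0398 and 0.00125). Of other uroplakin genes, Upk1b did not pass (limma, adjusted p = 0.103) and Upk3a was at 0 in every library. Upk2 and Upk3b fell below the filter and were not tested. Upk2 averaged 0.466 FPKM proximally and 0.0859 FPKM distally, whereas Upk3b went the other way, at 0.0148 FPKM proximally and 1.52 FPKM distally. The count of higher calls was 1 with no filter on low values or on leaving out replicate 2 or 3 of either group, and 0 with a filter at 5 FPKM. Prostate secretory products summed to 1127 to 1454 FPKM in proximal and 1757 to 2314 FPKM in distal libraries, with 1 of 13 higher and 1 lower. Without proximal replicate 1, 3 were higher (550 of all 10255 tested genes), and without both libraries numbered 1, 4 were (881 of all tested genes). The lower one was Defb50, a beta-defensin gene, which set the order of the sums at 327 ± 103 FPKM proximally and 1344 ± 235 FPKM distally (SD, n = 3 each, limma, adjusted p = 0.00252). The seminal vesicle secretory genes Svs2, Svs4, Svs5 and Pate4, picked here after their values were seen, were high in proximal replicate 2, in proximal replicate 3 or in both. Svs3a of the same list was not, at 0.430 FPKM in proximal replicate 2 and 0 in every other library. Svs5 was at 0.391, 107 and 239 FPKM in proximal libraries, against 0.325, 0.860 and 0.393 FPKM in distal libraries. Svs2 reached 191 FPKM and Pate4 46.4 FPKM in proximal replicate 3, and Svs4 reached 51.3 FPKM in proximal replicate 2. Proximal replicates 2 and 3 thus stood apart for these genes. Proximal replicate 1, where Svs5 was near the distal values, had the highest Krt5 and Krt15 values, as distal replicate 1 did in its own group. The log2 changes without proximal replicate 2 and without proximal replicate 3 were 0.73 and 0.75 for Krt5 (limma, adjusted p = 0.0856 and 0.0610). They were 0.71 and 0.77 for Krt15 (limma, adjusted p = 0.138 and 0.0905). Each of these runs kept the other of these proximal libraries, and no run left out both. The part of the seminal vesicle transcripts in the keratin differences was not tested.

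Of 8 smooth muscle and 3 immune markers none was called in either direction, and 1 smooth muscle marker was higher at an unadjusted p under 0.05 (limma), with sums of 272 to 279 and 18.7 to 33.9 FPKM in proximal libraries, against 246 to 303 and 24.4 to 30.0 FPKM in distal libraries. The part of these cells in the keratin differences was not tested.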

How the data were processed

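RNA sequencing libraries of 3 proximal and 3 distal basal-cell samples were grouped by the labels. The submitters' processing notes name bcl2fastq 1.8.3, TopHat, Cufflinks and the mm10 build. The deposited files list FPKM with an interval for 63241 transcripts per library, per the file headers. They also hold the coverage of each transcript, a signal deposited by the authors whose scaling is not stated, and this was used to recompute ratios. No gene names are given, so transcripts were matched to GENCODE M21 (GRCm38) by span and spliced length (score of at least 0.5, best other gene below 0.8 of it) or by exons of a single gene covering at least 0.8 of the length. This placed 53323 transcripts with 93.9% of the FPKM, and FPKM was summed per gene. Depth was derived from the deposited intervals of long transcripts that overlap no other.

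A gene entered the test at an average of 1 FPKM or more. Values of log2(FPKM + 1) were fitted with limma 3.58.1 in R 4.3.3 (lmFit, eBayes with a variance trend, two-sided), with Benjamini-Hochberg adjustment over all 10255 genes and a threshold of 0.05. Genes under an unadjusted p of 0.05 were counted within lists only, with no share over all tested genes beside them. The log2 scale with a pseudocount of 1 understates changes of low genes. Ratios were compared by exact permutation tests (scipy 1.17.1). The procedures were tested on simulated data. The members and the gene lists were chosen with earlier results of these data known. Named genes are the 4 members, tested keratins, the 5 genes most like each member and the 4 lowest p-values of every other list, of which the text names a part. FPKM values are not counts, and the sources used here do not say whether counting used strand. Alternatives covered the pseudocount, filters, scaling, the variance trend, matching, a replicate block and leaving out libraries. A gene and a sequence are not reported here.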

Additional observations from a re-analysis of the deposited data

How the results depend on the processing

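Krt5 and Krt15 stayed higher in proximal cells, and Krt14 and Krt17 stayed on the lower side without a call, under all alternatives run. With no filter on low values, the log2 changes of Krt5 and Krt15 were both 0.71 and no longer passed (limma, adjusted p = 0.0585 and 0.186). Quantile normalization gave Krt15 a log2 change of 1.09 (adjusted p = 0.0374). Leaving out 1 library at a time gave log2 changes of 0.63 to 0.81 for Krt5, 0.66 to 0.80 for Krt15, -0.41 to -0.12 for Krt14 and -0.47 to -0.30 for Krt17. Log2 differences of the ratios were then 0.93 to 1.04 (Krt5 to Krt14), 0.94 to 1.22 (to Krt17), 0.59 to 0.67 (to the sum) and -0.05 to 0.02 (to Krt15, whose sign changed). The last was 0.00 without both libraries numbered 1. From coverage, an alternative chosen after seeing the data like equal library totals, the 4 were 0.98, 1.05, 0.59 and -0.03. On leaving out 1 library, the uncalled log2 changes of Krt16 and Krt18 spanned -0.02 to 0.48 and -0.06 to 0.24.

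Genes called higher numbered 464 and lower 256. With a filter at 5 FPKM these were 273 and 168, with no filter 137 were lower, without both libraries numbered 1 they were 881 and 1328, and leaving out 1 library gave 192 to 550 higher and 45 to 614 lower. The deviations of same-numbered libraries correlated at 0.383, 0.045 and 0.286 across genes, and proximal replicate 2 correlated best with distal replicate 3, at 0.160. With 3 libraries per group these values cannot decide whether the numbers mark pairs. The labels do not state pairs, so the main test used none. With a replicate block 880 genes were higher and 732 lower. Under that block Krt5 and Krt15 still passed (adjusted p = 0.00388 and 0.00837), and Krt14 and Krt17 did not (adjusted p = 0.153 and 0.0753). For the ratios, sign flips of 3 pairs cannot give a p below 0.25. The cause of these shifts was not tested.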
